A study of Mus musculus with 8 samples.

Results

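The 10 genes described here encode receptors for neuropeptides of stress and feeding: *Npy1r*, *Npy2r* and *Npy5r* (neuropeptide Y), *Cckbr* (cholecystokinin), *Galr1* (galanin), *Ntsr2* (neurotensin), *Tacr1* and *Tacr3* (tachykinins), *Crhr1* (corticotropin-releasing hormone) and *Mc4r* (melanocortins). They were picked by gene symbol and are 10 of the 18939 genes in the table (11 of its 24488 transcript rows). RNA was purified by translating ribosome affinity purification (TRAP), in which ribosomes tagged with EGFP-L10a are pulled down with the RNA they carry, from gross dissections of the paraventricular thalamus (PVT). All mice, on a C57BL/6J background and 8 to 12 weeks old at the start, carried OPRM1cre, with a cleavable peptide and Cre inserted into the untranslated end of *Oprm1*, the mu-opioid receptor (MOR) gene, and the Cre-dependent EGFP-L10a allele, so the tag marks every cell with a history of Cre and not MOR expression on the day. The morphine group (4 libraries, replicates 3, 4, 7 and 8) was given morphine in a drinking solution of 0.2% saccharin for 11 days, starting at 0.3 mg/ml and ending at 0.5 mg/ml, and the control group (4 libraries, replicates 1, 2, 5 and 6) was given saccharin alone. By the study's methods each library pooled the tissue of 2 mice of the same sex, which is uncertain for control 5 (below), and each group had 2 male libraries (control 1 and 2, morphine 3 and 4) and 2 female libraries by the labels.

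These receptors sit in the cell membrane and couple to G proteins: the neuropeptide Y and galanin receptors listed here act mainly through inhibitory G proteins, the cholecystokinin and tachykinin receptors through calcium release, and *Crhr1* and *Mc4r* through cyclic AMP. The PVT receives peptide fibers from the hypothalamus and brainstem and is known for its part in arousal, feeding and the response to stress. A receptor's RNA in these libraries says that some of the cells sampled can make it. It does not say which cells these are, or how much protein reaches the membrane.

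*Npy1r* and *Npy5r* are neighbors on chromosome 8 (GRCm38.p6), transcribed away from each other. *Npy5r* lies at 66679965 to 66688094 on the minus strand and *Npy1r* at 66697149 to 66706800 on the plus strand, so that 9054 bases separate the genes. Positions of the other members below are on the same build. Windows of 250 bases before an annotated transcript start were searched in 8 members (RefSeq, GRCm38.p6). Of these windows, 3 held the E-box CACGTG, which is its own reverse complement and was found in 6.02% of 32851 such windows. The 3 sequences with this motif are shown. *Npy1r*, whose values followed those of *Npy5r* most closely among the 10 members, held none of the motifs searched in its own window. The motif search covered the full 250 bases. In *Npy1r*, *Npy2r*, *Tacr1* and *Crhr1* this window lay wholly inside the RefSeq span of the gene. Bases inside an annotated exon or gene were left out only of the sequences shown. Capitals mark the E-box and, in *Npy5r*, the CCAAT box read on the opposite strand (ATTGG).
Npy5r (chr8:66688129-66688344, minus strand): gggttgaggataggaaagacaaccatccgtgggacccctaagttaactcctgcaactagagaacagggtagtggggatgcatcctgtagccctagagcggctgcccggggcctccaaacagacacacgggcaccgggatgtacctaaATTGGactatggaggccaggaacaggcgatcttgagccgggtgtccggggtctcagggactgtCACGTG
Cckbr (chr7:105425481-105425675, plus strand): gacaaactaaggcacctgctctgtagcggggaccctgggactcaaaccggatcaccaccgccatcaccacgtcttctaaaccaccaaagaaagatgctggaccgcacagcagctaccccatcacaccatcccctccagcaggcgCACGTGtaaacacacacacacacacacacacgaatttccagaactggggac
Ntsr2 (chr12:16653220-16653381, plus strand): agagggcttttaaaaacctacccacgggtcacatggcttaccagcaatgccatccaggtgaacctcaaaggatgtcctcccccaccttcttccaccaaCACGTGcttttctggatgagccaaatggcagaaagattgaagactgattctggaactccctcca

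In *Npy5r* the E-box began 40 bases before the transcript start (position -40) and the CCAAT box at position -103, and the E-box began at -106 in *Cckbr* and at -152 in *Ntsr2*. The CCAAT box (either strand) was found in 33.8% of all windows and in 2 of the 8 members. The full cAMP response element TGACGTCA was in 1.55% of all windows and in 0 of the 8. Its shorter form TGACG or CGTCA was in 17.8% of all windows and in 2 members, at -58 in *Tacr3* and at -226 in *Tacr1*, and only *Tacr3* held TATAAA (-29; 12.4% of all windows). These matches describe letters in a window and were not tied to binding.

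A control library held between 37081346 and 43311792 counts, and a morphine library between 31151106 and 47582947. The members had 13 to 732 counts per library, for which counting alone gives an SD of 3.70% to 27.7%, and all 10 had at least 10 counts in every library. Markers of other cell types differed between libraries. The summed level of 10 choroid plexus markers was 22.7 to 136 CPM (counts scaled to the TMM-normalized library size) in the control group and 204 to 659 CPM in the morphine group. All 10 were higher on average in the morphine group, 0 were called by edgeR, and their mean log2 level did not overlap between the groups (exact permutation P = 0.0286). The telencephalic and hippocampal markers follow. The summed level of 11 markers of telencephalic pyramidal neurons was 288 to 559 CPM in the control group and 466 to 866 CPM in the morphine group. Of these, 10 of 11 were higher on average in the morphine group and 1 was called by edgeR (*Bhlhe22*, adjusted P = 0.0176). Of 8 markers of hippocampal neurons 7 were higher on average in the morphine group and 0 were called. Their summed level was 281 to 325 CPM and 308 to 377 CPM, and their mean log2 level, 2.91 to 3.73 in the control group and 4.01 to 4.84 in the morphine group, did not overlap (exact permutation P = 0.0286). The part of these markers in the members' values was not tested. *Oprm1* and 9 other markers of midline thalamus were all lower on average in the morphine group (1745 to 3075 CPM summed) as compared to the control group (2344 to 3148 CPM). None of these markers was at 0 in all libraries. The library control 5, labelled female, held Y-linked RNA (*Ddx3y* 28.8 CPM, against 66.7 to 96.0 CPM in the male libraries and 0 to 0.065 CPM in the other female libraries). A pool of both sexes and another error of labelling cannot be told apart here, and the values without it are given beside the members it moves most. In bulk RNA of this kind, fewer cells of a type and less RNA per cell cannot be told apart.

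*Npy1r* was higher in the morphine group in every library and *Galr1* was lower on average, and these members had the smallest P values, while no member passed the edgeR test over all genes. With edgeR (quasi-likelihood test, adjusted by Benjamini-Hochberg), 0 of the 10 members were called at an adjusted P value under 0.05, where 0.195% of all genes were called. Before adjustment, 3 members (*Npy1r*, *Galr1* and *Npy5r*) were under 0.05, as were 12.1% of all genes. DESeq2 called 1 member, *Npy1r*, and 3.11% of the genes it tested. The 4 morphine libraries were all higher than the 4 control libraries in 1 member (3.34% of all genes) and all lower in 0 members (3.21% of all genes). The fitted log2 fold change of morphine over control was above 0 for 9 of 10 members, with a median of 0.29, and above 0 for 51.4% of all genes, with a median of 0.0088.

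**Figure D1:**
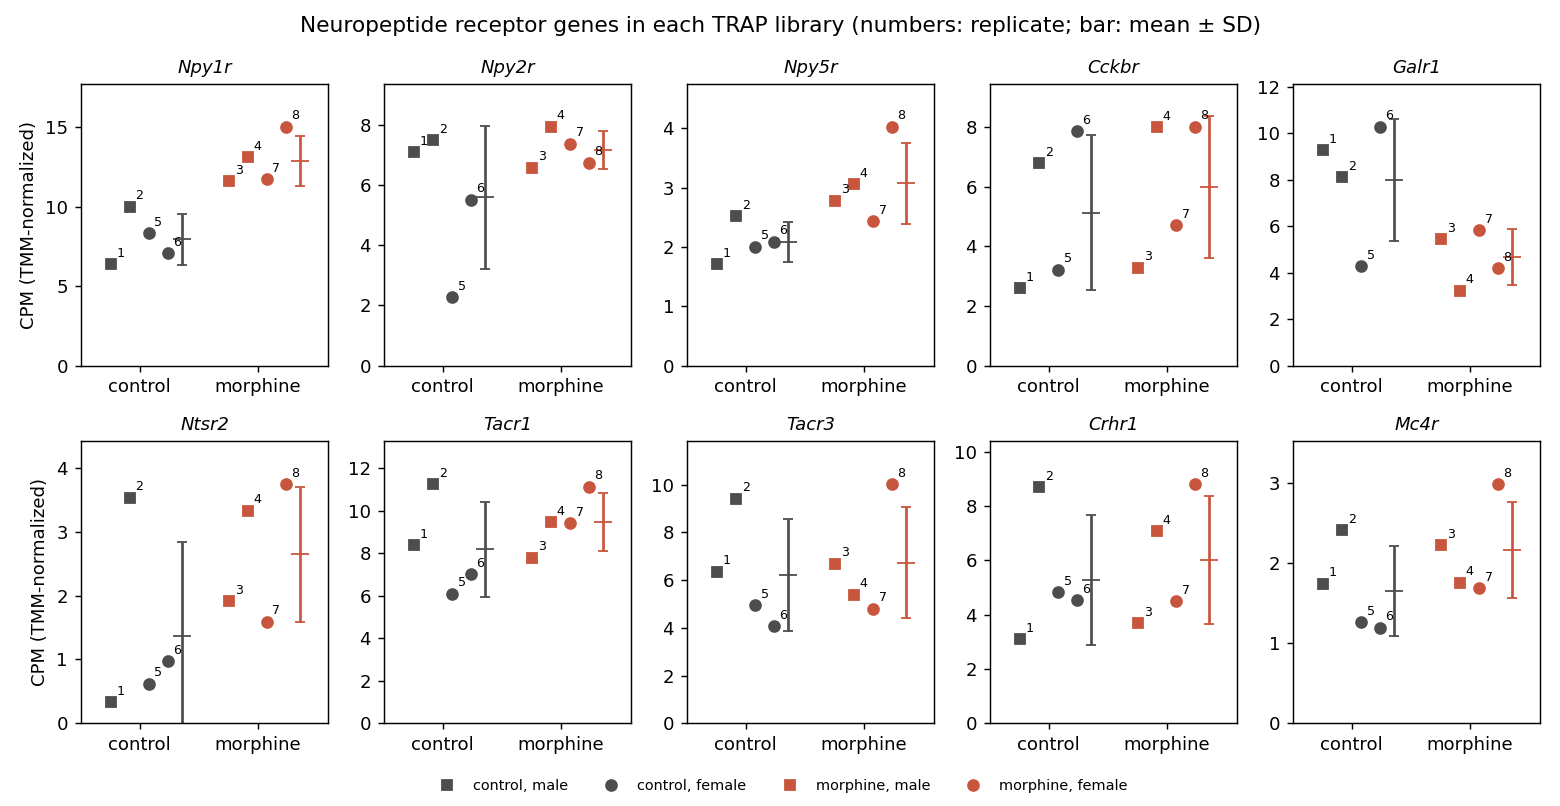
Level of each of the 10 receptor genes (CPM, y axis from 0) in the 4 control and 4 morphine libraries, with squares for male and circles for female libraries, the replicate number beside each point and a bar for the mean ± SD, which is not drawn below 0. *Npy1r* was the gene whose groups did not overlap, and in *Ntsr2*, *Tacr3* and *Crhr1* a few libraries of either group stood high.

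**Figure D2:**
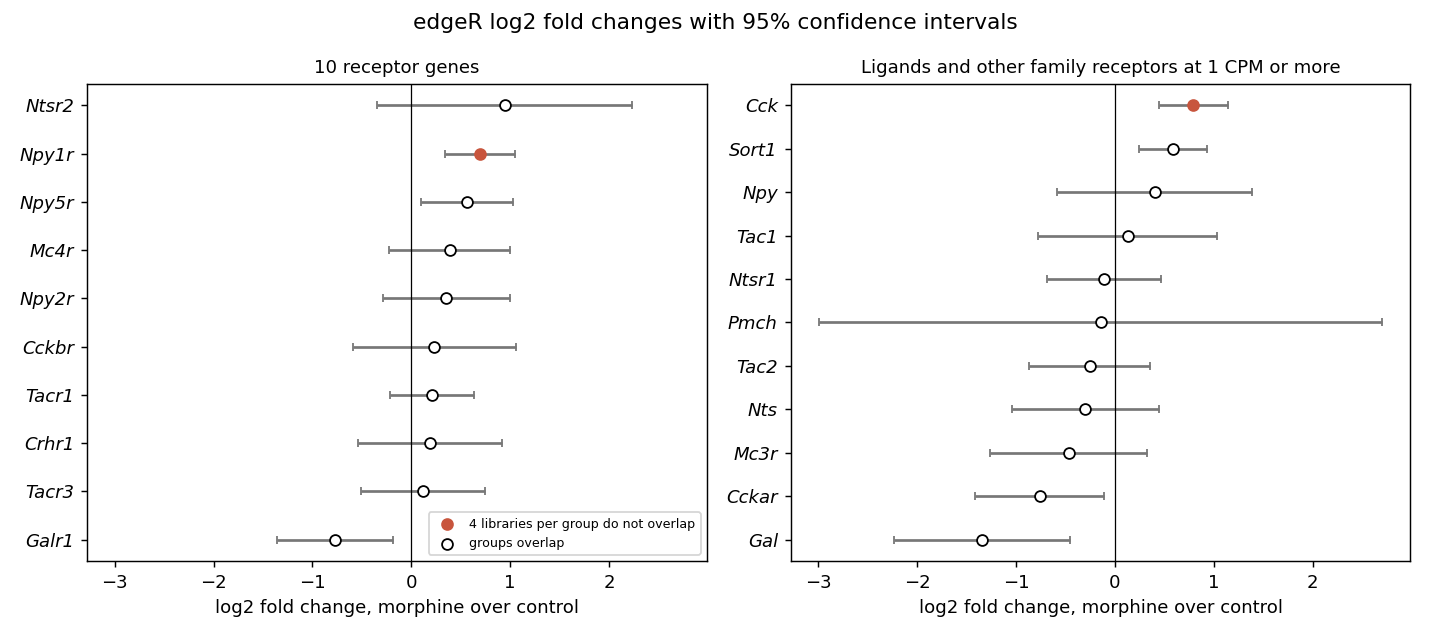
Log2 fold change of morphine over control from edgeR (x axis) with its 95% confidence interval for the 10 receptor genes and for their ligands and other receptors of the same families at 1 CPM or more. Filled points mark genes whose groups did not overlap (*Npy1r* and *Cck*), and intervals that lie wholly on 1 side of 0 are those of *Npy1r*, *Npy5r*, *Galr1*, *Cck*, *Sort1*, *Cckar* and *Gal*.

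*Npy1r* encodes the receptor best known for the feeding and anti-anxiety actions of neuropeptide Y. Its level was 6.38, 10.02, 8.34 and 7.09 CPM in control 1, 2, 5 and 6, and 11.6, 13.1, 11.8 and 15.05 CPM in morphine 3, 4, 7 and 8. The lowest morphine library was above the highest control library. The mean was 7.96 ± 1.59 CPM in the control group and 12.9 ± 1.59 CPM in the morphine group (SD, n = 4 libraries each), a 1.62-fold difference (95% interval 1.27 to 2.07, log2 fold change 0.70, SE 0.16). The edgeR P value was 0.00113, which ranked 191 of 18939 genes, and its adjusted P value was 0.112. DESeq2 gave an adjusted P value of 0.00465. The exact two-sided permutation test over the 70 arrangements of the libraries gave P = 0.0286, the smallest value it can give. Leaving out each library in turn kept the log2 fold change between 0.59 and 0.83.

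*Npy5r*, the receptor gene that shares the locus and has a role in feeding, had 1.72, 2.52, 2.01 and 2.09 CPM in control 1, 2, 5 and 6. The morphine libraries had 2.78, 3.06, 2.44 and 4.03 CPM in replicates 3, 4, 7 and 8. The groups overlapped only by control 2 and morphine 7. The means were 2.08 ± 0.33 and 3.08 ± 0.68 CPM (SD, n = 4), with a log2 fold change of 0.56 (95% interval 0.10 to 1.03, edgeR P = 0.0209, adjusted P = 0.313) and an exact permutation P of 0.0571. Without control 1 or without morphine 8 the unadjusted edgeR P value was 0.0609 or 0.0880. The ratio of *Npy1r* to *Npy5r* counts stayed between 3.39 and 4.83 in all libraries, at 3.81 ± 0.33 in the control group and 4.26 ± 0.45 in the morphine group, and did not differ beyond its spread (exact two-sided permutation P = 0.143, n = 4 per group).

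*Npy2r* (chromosome 3, 82538383 to 82548989, minus strand) encodes a receptor found mainly on axon terminals, where it limits release. It had 7.08, 7.50, 2.27 and 5.51 CPM in control 1, 2, 5 and 6, and 6.58, 7.93, 7.37 and 6.74 CPM in morphine 3, 4, 7 and 8. Control 5 was low, and the morphine libraries lay close together at about the level of control 1 and 2. The log2 fold change was 0.36 (95% interval -0.28 to 1.00, edgeR adjusted P = 0.671) and 0.08 without control 5. The ligand gene *Npy* was spread widely in the control group (5.71 to 34.0 CPM) and had 16.9 to 25.0 CPM in the morphine group, with a log2 fold change of 0.40 (SE 0.45, edgeR adjusted P = 0.737). The receptor RNA with the most even difference, *Npy1r*, stood beside a ligand RNA whose control values enclosed those of the morphine group.

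**Figure D3:**
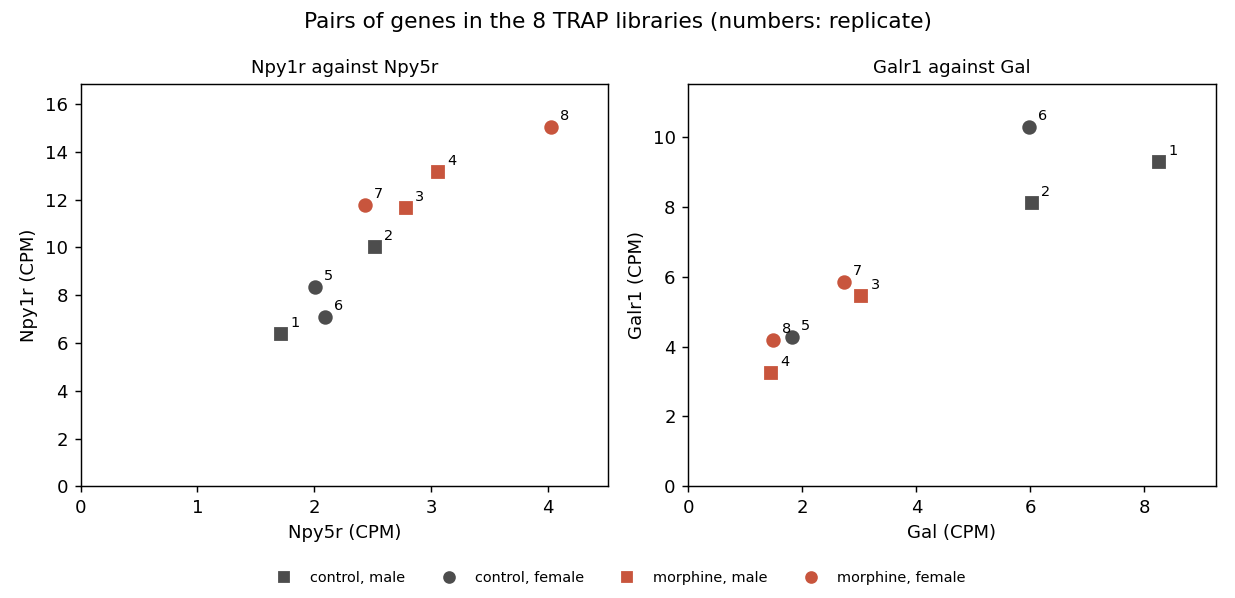
Level of *Npy1r* against *Npy5r* and of *Galr1* against its ligand *Gal* (CPM on both axes, from 0) in the 8 libraries, colored by group, with squares for male and circles for female libraries. *Npy1r* and *Npy5r* rank the libraries much alike, with morphine 8 highest and control 1 lowest in both, and control 5 lies with the morphine libraries in the plot of *Galr1* and *Gal*.

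*Galr1* was the only member with a lower mean in the morphine group. The gene (chromosome 18, 82392496 to 82406777, minus strand) encodes an inhibitory receptor for galanin, a peptide of hypothalamic and brainstem neurons. The control libraries 1, 2, 5 and 6 had 9.28, 8.10, 4.28 and 10.3 CPM. The morphine libraries 3, 4, 7 and 8 had 5.45, 3.24, 5.84 and 4.19 CPM. Each morphine library was below 3 of the 4 control libraries, and control 5 lay among the morphine libraries. The mean was 7.99 ± 2.63 CPM in the control group and 4.68 ± 1.19 CPM in the morphine group (SD, n = 4), with a log2 fold change of -0.77 (SE 0.27, 95% interval -1.36 to -0.18). The edgeR P value was 0.0148 and adjusted 0.282, and the exact permutation P was 0.0857. Without control 5, the library with Y-linked RNA, the log2 fold change was -0.99 with an edgeR P value of 0.000629 (edgeR adjusted P = 0.0999), and leaving out any other library kept it between -0.91 and -0.63.

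The ligand gene *Gal* had the same order of groups. It had 8.26, 6.03, 1.82 and 5.97 CPM in control 1, 2, 5 and 6, and 3.04, 1.45, 2.73 and 1.48 CPM in morphine 3, 4, 7 and 8. Control 5 again lay among the morphine libraries. Its log2 fold change was -1.35 (SE 0.41, edgeR adjusted P = 0.208, DESeq2 adjusted P = 0.0319). Over the 8 libraries, *Gal* ranked 3 of 12988 genes in its correlation with *Galr1* on the log2 CPM scale (r = 0.96), after *Rnf31* and *Jam2* (both r = 0.96). The points share their library and group, so this is a description of 8 samples. *Galr2* had at most 1 count in any library, and *Galr3* had means of 0.28 and 0.21 CPM. The markers of midline thalamus, given above, also had lower means in the morphine group (exact permutation P = 0.0571 for their mean log2 level), as did 8 of 9 hypothalamic markers (exact permutation P = 0.257), whose summed level was 14.2 to 47.0 CPM in the control group and 3.74 to 29.3 CPM in the morphine group; their part in the *Galr1* and *Gal* values was not tested.

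*Cckbr* (chromosome 7, 105425676 to 105436339, plus strand) encodes the main cholecystokinin receptor of the brain. Its values were 2.62, 6.80, 3.23 and 7.87 CPM in control 1, 2, 5 and 6 and 3.29, 7.99, 4.71 and 8.02 CPM in morphine 3, 4, 7 and 8. Each group held 2 low and 2 high libraries, so the groups overlapped over nearly their whole range. The log2 fold change was 0.23 (95% interval -0.59 to 1.05, edgeR adjusted P = 0.840), 0.0014 without control 1, 0.05 without control 5 and 0.49 without control 6. The ligand gene *Cck*, by contrast, had 49.5, 74.4, 55.3 and 51.3 CPM in the control libraries and 109, 90.2, 79.7 and 120 CPM in the morphine libraries, without overlap. Its log2 fold change was 0.79 (SE 0.16, edgeR adjusted P = 0.0735, DESeq2 adjusted P = 0.000842). The second receptor of the family, *Cckar*, had means of 3.42 ± 0.80 CPM in the control group and 2.04 ± 0.82 CPM in the morphine group (SD, n = 4, log2 fold change -0.76, edgeR adjusted P = 0.332). Pyramidal neurons of the telencephalon are rich in *Cck*, and the markers of those neurons moved with the groups as described. Their part in the *Cck* values was not tested.

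*Ntsr2* (chromosome 12, 16653443 to 16660236, plus strand), a neurotensin receptor that astrocytes also express, was the most variable member. The control libraries 1, 2, 5 and 6 had 0.33, 3.53, 0.62 and 0.98 CPM, and the morphine libraries 3, 4, 7 and 8 had 1.91, 3.33, 1.59 and 3.74 CPM. Control 2 was second of all 8 libraries and the other 3 controls were the lowest. Its log2 fold change was the largest of the members and the least certain (0.94, SE 0.59, 95% interval -0.35 to 2.24, edgeR adjusted P = 0.570). With limma-voom it was 1.42 with a P value of 0.0323 (limma-voom adjusted P = 0.337). Without control 2 the log2 fold change was 2.04 with an edgeR P value of 0.000506 (edgeR adjusted P = 0.0615). It was 0.61 without control 1 and 0.69 without control 5. The mean log2 CPM of 10 astrocyte markers (*Gfap*, *Aqp4*, *Aldh1l1* and others) was highest in control 2 (3.96), morphine 8 (3.94) and morphine 4 (3.60), the 3 libraries highest in *Ntsr2*, and lowest in control 1 (2.34) and control 5 (2.72), the 2 libraries lowest in *Ntsr2*. The summed CPM of the same markers, most of which came from *Slc1a2* and *Aldoc*, did not keep this order, with morphine 4 (572 CPM) below control 6 (594 CPM) and control 5 (587 CPM), and morphine 7 lowest (479 CPM). Of these markers, 8 of 10 had a higher mean in the morphine group and 0 of 10 were called (summed level 541 to 673 CPM and 479 to 711 CPM), and their part in the *Ntsr2* values was not tested. The neuronal receptor *Ntsr1* had means of 6.40 and 5.92 CPM, and the ligand *Nts* 5.91 and 4.80 CPM, in the control and morphine groups. The log2 fold changes were -0.11 (edgeR adjusted P = 0.890) and -0.30 (edgeR adjusted P = 0.739).

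The tachykinin receptors had small average differences. *Tacr1* (chromosome 6, 82402003 to 82560104, plus strand) encodes the receptor for substance P. It had 8.38, 11.2, 6.10 and 7.00 CPM in control 1, 2, 5 and 6 and 7.79, 9.45, 9.42 and 11.1 CPM in morphine 3, 4, 7 and 8. Control 2 was the highest of all libraries, and the morphine values lay within the control range. The log2 fold change was 0.21 (95% interval -0.22 to 0.63, edgeR adjusted P = 0.677). Without control 2 it was 0.40 with an edgeR P value of 0.0373 (edgeR adjusted P = 0.239), and without control 5 it was 0.07. *Tacr3* (chromosome 3, 134829007 to 134934581, plus strand), for neurokinin B, had 6.36, 9.41, 4.95 and 4.07 CPM in the control libraries and 6.69, 5.39, 4.81 and 10.01 CPM in the morphine libraries, in the same order. Control 2 and morphine 8 stood above the others. The log2 fold change was 0.12 (95% interval -0.50 to 0.75, edgeR adjusted P = 0.890) and 0.0098 without control 5, and it changed sign without control 6 (-0.06) or morphine 8 (-0.14). The ligand genes *Tac1* and *Tac2* had log2 fold changes of 0.13 (edgeR adjusted P = 0.924) and -0.26 (edgeR adjusted P = 0.727).

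*Crhr1* (chromosome 11, 104130463 to 104175523, plus strand) encodes the main receptor for the stress peptide corticotropin-releasing hormone. It had 3.10, 8.69, 4.83 and 4.53 CPM in control 1, 2, 5 and 6, and 3.68, 7.08, 4.51 and 8.80 CPM in morphine 3, 4, 7 and 8. The groups overlapped over nearly their whole range, with control 2, morphine 4 and morphine 8 high. The log2 fold change was 0.19 (95% interval -0.54 to 0.92, edgeR adjusted P = 0.853) and changed sign without control 1 (-0.01) or without morphine 8 (-0.06). The ligand gene *Crh* had means of 1.02 and 0.93 CPM in the control and morphine groups. The related ligand urocortin (*Ucn*) had 0 to 31 counts in the control libraries and 0, 37, 48 and 124 counts in the morphine libraries (edgeR adjusted P = 0.377). Its groups overlapped, since morphine 7 and control 6 both had 0 counts.

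*Mc4r* (chromosome 18, 66857705 to 66860487, minus strand), whose product lowers food intake when bound by melanocortins, had the lowest length-scaled level of the members. It had 1.74, 2.41, 1.27 and 1.19 CPM in control 1, 2, 5 and 6 and 2.22, 1.76, 1.69 and 2.98 CPM in morphine 3, 4, 7 and 8. Control 2 was above 3 of the 4 morphine libraries, and the values of both groups were mixed. The log2 fold change was 0.39 (95% interval -0.22 to 1.00, edgeR adjusted P = 0.619). Without control 2 it was 0.63 with an edgeR P value of 0.0413 (edgeR adjusted P = 0.249). It was 0.26 without control 5 and 0.19 without morphine 8. The ligand precursor *Pomc* had means of 1.02 and 0.91 CPM, and the other central melanocortin receptor *Mc3r* had 2.64 ± 1.03 and 1.90 ± 0.75 CPM (SD, n = 4, edgeR adjusted P = 0.645).

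Levels of different genes were compared per kilobase of transcript. In the control group *Galr1* (2.67 ± 0.88 CPM per kb) and *Npy1r* (2.65 ± 0.53) were highest, followed by *Crhr1* (2.15), *Cckbr* (1.99), *Npy2r* (1.66), *Tacr3* (1.65) and *Tacr1* (1.63), and then by *Npy5r* (0.90), *Ntsr2* (0.90) and *Mc4r* (0.59). The ranges of neighbors in this order overlapped, apart from *Tacr1* and *Npy5r*, which did not. The rank of *Npy2r* is uncertain, since its second transcript row, which was not used, held 87.4% to 94.3% as many counts as the row used, and its level would be higher if reads were split between the rows. In the morphine group *Npy1r* was first, at 4.30 ± 0.53 CPM per kb, above every other member in every library (lowest value 3.88, against 3.58 as the highest of another member), and *Galr1* was eighth, at 1.57 ± 0.40. For scale, in the control group *Oprm1* had 10.5 CPM per kb and the ligand genes *Cck*, *Npy*, *Tac1*, *Tac2* and *Gal* had 83.4, 27.8, 13.0, 12.9 and 7.00 CPM per kb.

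**Figure D4:**
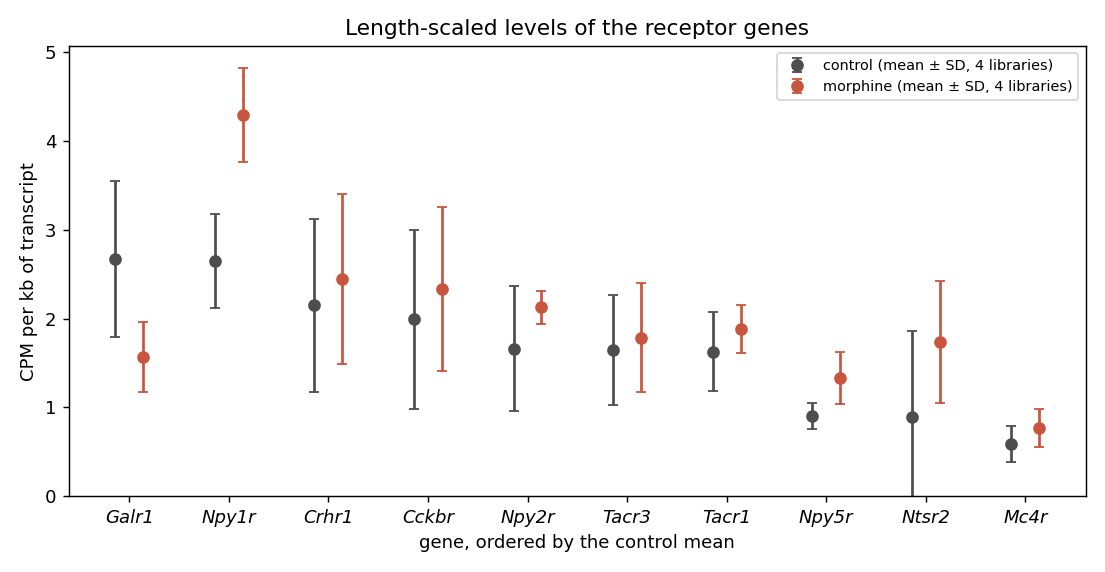
Length-scaled level of each receptor gene (CPM per kb of transcript, y axis from 0) in the control and morphine groups, as mean ± SD of 4 libraries, ordered by the control mean; bars are not drawn below 0. *Npy1r* moves from rank 2 to rank 1 and *Galr1* from rank 1 to rank 8.

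The median coefficient of variation within groups was 31.2% over the members and 13.1% over 12989 genes at 1 CPM or more. It was 17.9% over the 2926 genes with a mean in the range of the members (1.91 to 10.4 CPM) and 28.2% over 18 receptors for other peptides at 1 CPM or more, close to that of the members. *Npy1r* was the most even (15.3%) and *Ntsr2* the least (63.7%, with an 11.2-fold range over the 8 libraries). The same libraries stood high for many members. Morphine 8 was among the 3 highest libraries for 8 members, and highest for 7. Control 2 and morphine 4 were each among the 3 highest for 7 members, and control 5 for 0. Of the 45 pairs of members, 37 had a correlation above 0 over the 8 libraries, with a median r of 0.55. The closest were *Npy1r* and *Npy5r* (r = 0.94), *Tacr3* and *Mc4r* (0.93), *Npy5r* and *Ntsr2* (0.88) and *Npy1r* and *Ntsr2* (0.86), and *Npy1r* and *Galr1* were the most opposed (-0.74). Each of these correlations is over the same 8 libraries, which differ in group, depth and marker levels, and the part of these differences was not tested.

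**Figure D5:**
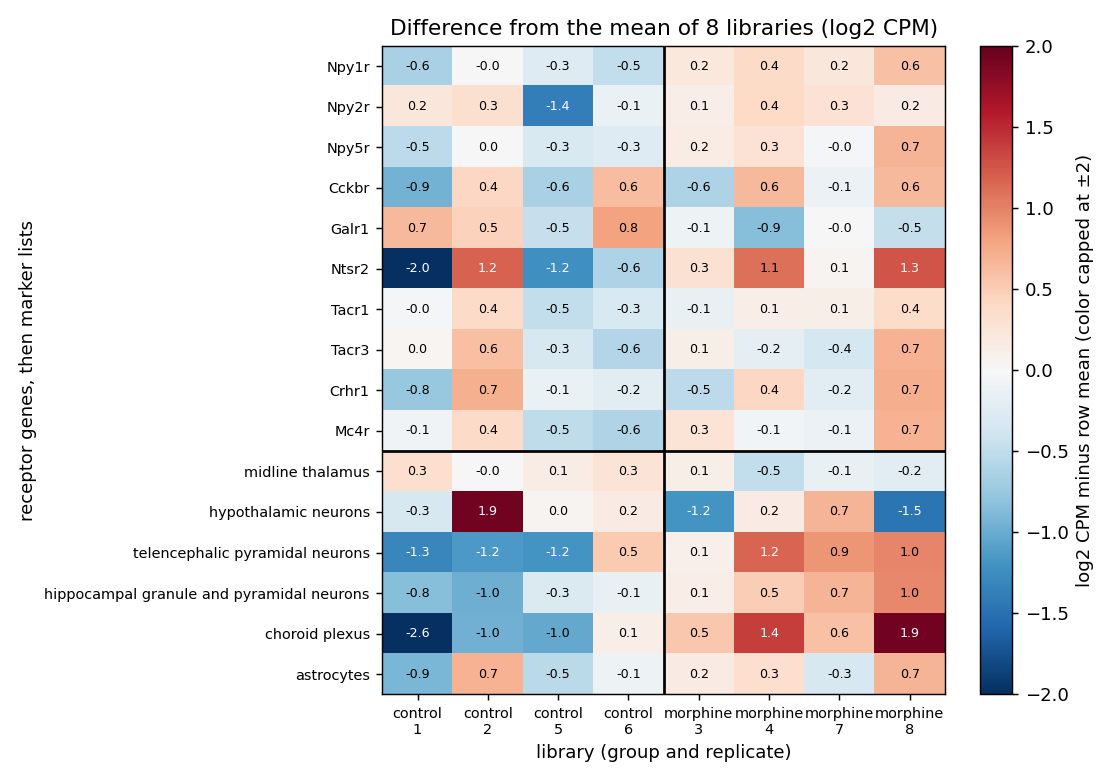
Level of each receptor gene, and below the line the mean level of 6 marker lists, in each library as the difference in log2 CPM from the mean of the 8 libraries (number and color in each cell, color capped at 2 in either direction). Control 2 and morphine 8 are above the mean for most receptor genes and for astrocyte markers, and choroid plexus markers are above the mean in all morphine libraries and in control 6.

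Among 12988 genes with a mean of 1 CPM or more, the gene closest to each member over the 8 libraries was *4833424O15Rik* for *Npy1r* (r = 0.98), *Ddx23* for *Npy2r* (0.98), *Pcdha4* for *Npy5r* (0.99), *Nup210* for *Cckbr* (0.97) and *Rnf31* for *Galr1* (0.96). For the remaining members it was *Adipor1* for *Ntsr2* (r = 1.00), *Chid1* for *Tacr1* (0.99), *Ntn4* for *Tacr3* (0.98), *Man2b2* for *Crhr1* (0.98) and *Pigx* for *Mc4r* (0.97). These are descriptions over 8 points, and *Gal* was the only ligand gene among the 3 closest to any member.

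Male and female libraries were compared with the condition in the model. By edgeR 0 of the 10 members were called (0.00528% of all genes), 0 were under 0.05 before adjustment (3.1% of all genes), and DESeq2 called 0 (0.199% of the genes it tested). The difference between the morphine and control groups was then compared between the sexes by an interaction term, to which each sex and condition contributes 2 libraries. edgeR called 0 members and 0% of all genes, DESeq2 called 0 members and 0.0211% of all genes, and 2 members were under 0.05 by edgeR before adjustment, as were 1.72% of all genes. For *Tacr1* the log2 difference of morphine from control was -0.18 in males and 0.64 in females, and the fitted interaction was 0.84 (95% interval 0.15 to 1.53), with an edgeR P value of 0.0217. For *Tacr3* the differences were -0.36 and 0.62, and the interaction was 1.11 (95% interval 0.08 to 2.13), with an edgeR P value of 0.0370. The adjusted edgeR P value of both was 1.00. Without control 5, whose female label its Y-linked RNA contradicts, the edgeR P value was 0.0688 for *Tacr1* and 0.0417 for *Tacr3*. For *Npy1r* the log2 difference was 0.63 in males and 0.79 in females (interaction 0.20, 95% interval -0.55 to 0.96), and for *Galr1* it was -1.04 and -0.42 (interaction 0.46, 95% interval -0.72 to 1.63). Without control 5 the interaction was 0.33 for *Npy1r* and -0.04 for *Galr1*.

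The other genes of these peptide systems were counted from lists. Of 20 ligand genes 17 were in the table, 0 were called by edgeR, and 2 (*Cck*, *Ucn*) had a higher and 1 (*Gal*) a lower mean in the morphine group at an unadjusted P value under 0.05, which 12.1% of all genes also had in either direction, as the background for this and the next 3 lists. Their median log2 fold change was -0.16. Of 14 other receptors of the same families 12 were in the table, 0 were called by edgeR, and 1 was higher (*Sort1*) and 1 lower (*Cckar*) at an unadjusted P value under 0.05, with a median of -0.37. *Sort1*, a sorting receptor that also binds neurotensin, had 198 ± 31.0 CPM in the control group and 297 ± 58.8 CPM in the morphine group (SD, n = 4, log2 fold change 0.58, edgeR adjusted P = 0.161), and DESeq2 called it. Of 11 genes for processing and accessory proteins edgeR called 0, and *Cpe* and *Mme*, which encode a peptide processing and a peptide degrading enzyme, were higher at an unadjusted P value under 0.05 (log2 fold changes 0.42 and 0.47, edgeR adjusted P = 0.363 and 0.330), with a median of 0.12 over the list. Of 30 receptors for other peptides edgeR called 0, and 2 were higher (*Avpr1b*, *Sstr4*) and 1 lower (*Calcr*) at an unadjusted P value under 0.05, with a median of -0.04. The vasopressin receptor *Avpr1b* had 0, 0, 0 and 1 counts in control 1, 2, 5 and 6 and 9, 7, 3 and 12 counts in morphine 3, 4, 7 and 8, without overlap, and DESeq2 called it. The calcitonin receptor *Calcr* had 3.46, 3.15, 0.69 and 3.91 CPM in the control libraries and 0.31, 0.70, 1.82 and 0.78 CPM in the morphine libraries, with control 5 again among the morphine libraries (log2 fold change -1.65, edgeR adjusted P = 0.258).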

How the data were processed

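RNA from TRAP of PVT dissections was measured in 8 libraries, grouped by their labels. The authors deposited 1 table of raw read counts per RefSeq transcript and library. Their notes name DESeq2 and mm10, and the paper Salmon and tximport, but the tool and strand setting behind the table are not given in the sources used here. A gene can have several transcript rows, and how shared reads were assigned to them is not stated, so for each gene only the transcript row with the largest total was kept. The 10 members, the gene lists and the tests were chosen with earlier results of these data known. Counts with a value above 0 in at least 1 library were tested with edgeR 4.0.16 (R 4.3.3, TMM, quasi-likelihood test, Benjamini-Hochberg over 18939 genes, threshold 0.05) with condition in the model, or with sex and, where stated, their interaction. CPM were computed from the deposited counts. Exact two-sided permutation tests used log2(CPM + 0.5), and a marker list's value in a library is the mean over its genes of log2 CPM (prior count 2). Confidence intervals are 95%. Alternatives were DESeq2 1.42.0, limma-voom (limma 3.58.1), other factors, filters, sex in the model, robust empirical Bayes, the sum over transcripts and each library left out. The tests were tried on simulated data. PCR copies are not marked, so counting SDs cover counting error only. Transcript lengths came from GENCODE transcripts linked to the RefSeq accessions (10 of 10 members), and start windows from RefSeq, GRCm38.p6, for 8 members. All 10 members were named. Of the ligand, receptor and processing lists, the genes that passed a test and some of the ligands and family receptors of the members were named. No sequencing batch is labelled, so no comparison within batches was made. No member shares exon sequence with another annotated gene. *Npy2r* has 2 transcript rows. Figures were drawn with matplotlib 3.10.9.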

Additional observations from a re-analysis of the deposited data

How the results depend on the processing

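Over 10 members and 17 alternatives, 165 of 170 log2 fold changes kept their direction and their side of the adjusted threshold. The exceptions were *Npy1r*, which DESeq2 called (0.70, adjusted P 0.00465, against 0.112 by edgeR and up to 0.328 without control 1), so that DESeq2 called 1 member, and the reversed signs of *Crhr1* and *Tacr3*. Leaving out 1 library at a time gave -0.057 to 0.54 for *Crhr1* (-0.011 without control 1, -0.057 without morphine 8) and -0.14 to 0.40 for *Tacr3* (-0.06 without control 6, -0.14 without morphine 8). *Npy1r* and *Galr1* had an unadjusted P value under 0.05 under all 17 alternatives, and *Npy5r* under 15 of them. The number of genes called, 37 by edgeR, was 498 with DESeq2, 23 with limma-voom, 14 with filterByExpr, 15 with at least 10 counts in every library, 110 with sex in the model and 22 with transcripts summed. With 1 library left out it was 0 to 77, at 0 without morphine 4 (1697 genes at an unadjusted P value under 0.05) and without morphine 8 (1664), and 1 without control 1. The cause of these differences was not tested. The counts of members called for sex and for the interaction were 0 under every alternative run (DESeq2, filterByExpr and without control 5). No paired analysis was possible because the groups share no replicate numbers. Counting error is largest for *Ntsr2*, with as few as 13 counts in a library.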
